A study of Homo sapiens with 4 samples.

Results

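The replication-dependent histone genes on chromosome 6 were examined for accessible chromatin in LNCaP cells and in cells made resistant to enzalutamide. Members were the protein-coding genes of the RefSeq GRCh38 table between 25 and 29 Mb of chromosome 6 whose symbols start with H1-, H2AC, H2BC, H3C or H4C. This rule found 55 of the 20037 protein-coding genes on the main chromosomes: 6 H1, 12 H2A, 15 H2B, 10 H3 and 12 H4 genes. LNCaP is an established cell line from a lymph node metastasis of prostate cancer, and its libraries carry the genotype label WT. The cells labelled LNCaP-resistance have the genotype label resistance cells and were treated with enzalutamide, an antiandrogen drug used in prostate cancer. Both were grown in RPMI-1640 with fetal bovine serum. By the study's methods, the resistant sublines were first adapted to charcoal-stripped serum, meant to mimic androgen deprivation. Enzalutamide was then raised in steps. That change of serum cannot be told apart from the drug or from resistance. The labels give neither the drug concentration nor the name of the resistant subline, and the study's text on these data names the subline LN-35. Each cell type had 2 libraries, whose repeat number the labels call a batch, and nothing in the labels says that the libraries came from separate cultures.

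Core histones H2A, H2B, H3 and H4 form the protein spool of the nucleosome, and H1 linker histones bind the DNA where it enters and leaves. The replication-dependent genes supply most of this protein in S phase. They are short, mostly without introns, and their mRNAs end in a stem-loop in place of a poly(A) tail. Many H2A and H2B genes stand back to back and share the stretch between their start sites, and the clusters assemble a nuclear structure, the histone locus body, in which NPAT and the mRNA processing factors gather.

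ATAC-seq uses a transposase that inserts into open chromatin, and the deposited data are peak summits with a score each, in a separate list for every library. The lists held 117245 and 107344 summits in the LNCaP libraries against 70866 and 45618 in the resistant libraries. Scores were therefore turned into percentiles: the percent of summits in the same list that do not exceed a summit's score. A gene took the percentile of its strongest summit within 1 kb, and 0 where no summit was listed there. The lists hold no read counts, so depth is unknown, and an unlisted summit was not called there and is not shown to be absent. With 2 libraries against 2, no 2-sided exact permutation test can give a p below 0.333. Changes are therefore set against the SD between replicates pooled over both cell types and against the spread of all protein-coding genes. A gene was called higher or lower when both resistant libraries lay on the same side of both LNCaP libraries. Of prostate epithelium genes, 5 chosen after the data were seen (KLK3, KLK2, TMPRSS2, FOXA1 and HOXB13) had a summit in all 4 libraries, which checks the labels little. KLK3, which LNCaP is known to express, was low in LNCaP, at percentiles of 4.79 and 3.46 against 82.7 and 60.6 in the resistant libraries. FOXA1 was at 38.5 and 52.0 in LNCaP against 87.6 and 86.0 in the resistant libraries.

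Promoter sequences of 6 members are shown because the results below turn on them. They were taken from the RefSeq GRCh38.p14 promoter table, from 250 bases before to 50 bases after the listed start, 5′ to 3′ on the gene's own strand. Capitals mark exact matches on either strand to TATAAA (the letters of a TATA box), CCAAT, ATTTGCAT (the octamer bound by POU2F1) and AAACACA (a box known from H1 promoters). Matches are marked wherever they lie in the window, so a marked TATAAA need not be a TATA box, and inexact matches are not marked. H2BC6 (chr6:26183511-26183810, plus strand), H1-4 (chr6:26156079-26156378, plus strand) and H1-5 (chr6:27867539-27867838, minus strand) had a start-site summit in the resistant libraries alone. H4C4 (chr6:26189063-26189362, minus strand) had the largest change. H2AC6 (chr6:26123922-26124221, plus strand) holds a strong summit of all 4 libraries between it and H2BC4. H2BC9 (chr6:26251364-26251663, plus strand) lies in the longest run of genes without a summit.
H2BC6: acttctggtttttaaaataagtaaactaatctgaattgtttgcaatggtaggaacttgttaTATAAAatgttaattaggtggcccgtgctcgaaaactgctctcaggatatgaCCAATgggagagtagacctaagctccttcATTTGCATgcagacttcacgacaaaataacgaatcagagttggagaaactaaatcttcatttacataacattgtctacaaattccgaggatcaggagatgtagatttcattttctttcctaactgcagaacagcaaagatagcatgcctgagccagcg
H1-4: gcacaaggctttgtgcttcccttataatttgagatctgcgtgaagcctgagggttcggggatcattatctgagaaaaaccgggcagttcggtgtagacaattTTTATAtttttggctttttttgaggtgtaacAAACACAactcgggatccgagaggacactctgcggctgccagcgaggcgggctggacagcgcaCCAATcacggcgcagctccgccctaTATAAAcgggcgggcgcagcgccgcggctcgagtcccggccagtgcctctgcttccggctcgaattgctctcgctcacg
H1-5: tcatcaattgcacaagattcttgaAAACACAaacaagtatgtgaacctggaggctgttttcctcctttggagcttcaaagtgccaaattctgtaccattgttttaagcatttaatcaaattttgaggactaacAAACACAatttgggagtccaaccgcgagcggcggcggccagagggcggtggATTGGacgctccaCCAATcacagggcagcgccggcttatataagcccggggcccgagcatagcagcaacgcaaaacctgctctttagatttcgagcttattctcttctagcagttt
H4C4: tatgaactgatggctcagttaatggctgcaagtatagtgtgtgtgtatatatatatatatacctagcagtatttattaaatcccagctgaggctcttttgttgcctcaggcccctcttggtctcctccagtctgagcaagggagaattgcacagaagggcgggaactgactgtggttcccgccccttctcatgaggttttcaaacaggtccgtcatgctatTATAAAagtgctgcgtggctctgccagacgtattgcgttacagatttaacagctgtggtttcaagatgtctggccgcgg
H2AC6: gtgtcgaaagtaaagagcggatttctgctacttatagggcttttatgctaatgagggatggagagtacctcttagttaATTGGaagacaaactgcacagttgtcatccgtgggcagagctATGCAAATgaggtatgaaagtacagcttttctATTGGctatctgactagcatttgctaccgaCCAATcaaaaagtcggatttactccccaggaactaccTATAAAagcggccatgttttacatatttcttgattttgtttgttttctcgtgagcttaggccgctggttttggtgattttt
H2BC9: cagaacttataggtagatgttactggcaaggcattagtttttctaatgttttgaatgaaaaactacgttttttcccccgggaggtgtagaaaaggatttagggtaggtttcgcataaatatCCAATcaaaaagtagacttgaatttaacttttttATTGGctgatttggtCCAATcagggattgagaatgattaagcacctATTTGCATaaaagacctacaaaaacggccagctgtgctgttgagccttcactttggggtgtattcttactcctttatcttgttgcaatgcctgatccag

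Counted from base 1 of the printed sequence, the H2BC6 summits fell on bases 198 and 186 in resistant replicates 1 and 2, downstream of the printed octamer. Those of H1-4 fell on bases 273 and 276 and those of H1-5 on bases 267 and 282, within the 50 transcribed bases. The H2AC6 summits fell on bases 128 and 138 in LNCaP replicates 1 and 2, next to its octamer match, and on bases 32 and 80 in resistant replicates 1 and 2. The summits of H4C4 lay beyond the printed stretch, from 58 to 64 bp after the start. The printed H2BC9 window holds an octamer and CCAAT matches like those of H2BC6 and had no summit in any library.

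Most histone genes were accessible in both cell types. A summit lay within 1 kb of 38 and 37 members in LNCaP replicates 1 and 2 and of 39 members in each resistant library. All 4 libraries had one at 36 members (65.5%), against 74.3% of all protein-coding genes. No library had one at 15 members (27.3%), against 12.7% of all protein-coding genes. These 15 genes were H1-1, H1-3 and H1-6 among linker histones, H2AC1 among H2A genes, H2BC1, H2BC3, H2BC9 and H2BC10 among H2B genes, H3C3, H3C7, H3C8 and H3C12 among H3 genes, and H4C6, H4C7 and H4C9 among H4 genes. H2AC1, H2BC1 and H1-6 encode histones best known from the testis. The nearest summit of any library lay between 2280 bp (H3C12) and 13387 bp (H3C8) from these genes. The sets with and without a summit were nearly the same in LNCaP and resistant cells, with 4 members that had a summit in some libraries only. Longer genes leave more room for a summit, so the shares above compare genes of unlike length. Within 250 bp of a listed start, no library had a summit at 32.0% of members and at 34.2% of all protein-coding genes.

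**Figure D1:**
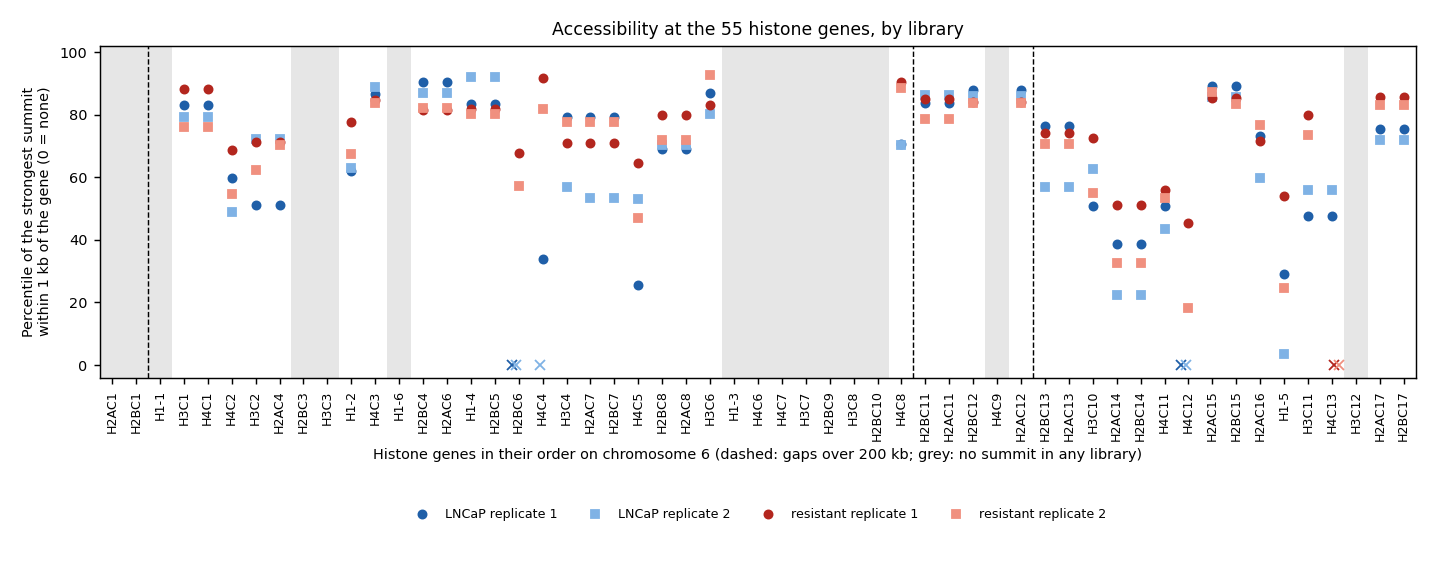
Percentile of the strongest summit within 1 kb of each of the 55 histone genes (vertical axis, 0 to 100), in their order on chromosome 6, with 1 point per gene and library. Blue is LNCaP, red is resistant, circles are replicate 1 and squares replicate 2, crosses mark libraries without a summit, and grey bands mark the 15 genes without a summit in any library. H2BC6 and H4C12 have crosses in both LNCaP libraries, H4C4 in LNCaP replicate 2 and H4C13 in both resistant libraries.

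The genes fell into 4 groups parted by gaps of over 200 kb. The pair H2AC1 and H2BC1 had no summit. From H1-1 to H4C8 there were 32 genes, of which 11 had none. From H2BC11 to H2AC12, 1 of 5 had none, and from H2BC13 to H2BC17, 1 of 16. Of the 11, 7 were consecutive, from H1-3 to H2BC10 (chr6:26234212-26273412, 39201 bp), with no other protein-coding gene between them. LNCaP libraries had no summit in this stretch, resistant replicate 1 had 2 and resistant replicate 2 had none. On either side of it, H3C6 and H4C8 stood at percentiles from 80.3 to 92.7 and from 70.3 to 90.4. H2AC8 and H2BC8, the pair beyond H3C6, stood from 69.0 to 79.98.

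By their strongest summit within 1 kb, the histone genes ranked below the typical protein-coding gene in LNCaP and nearer to it in the resistant libraries. Longer genes leave more room for a strong summit, and the members are short (median 489 bp, against 24115 bp for all protein-coding genes). Among members with a summit, the median percentile was 75.5 and 70.4 in LNCaP replicates 1 and 2 and 79.9 and 76.4 in resistant replicates 1 and 2. Over all protein-coding genes with a summit it was 87.0, 85.8, 85.1 and 78.2 in the same order. The median change in mean percentile, resistant minus LNCaP, was 6.27 points over the 40 members with a summit and -1.86 points over all protein-coding genes with one. Over all 55 members, those at 0 included, it was 1.13 points, against -0.60 over all protein-coding genes. Within 1 kb of a listed start, the medians over genes with a summit were 7.43 points for members and 0.52 for all protein-coding genes. Within 250 bp of it they were 6.61 and 1.14 points. Within repeat 1 the members' median was 5.07 points (all genes -0.55) and within repeat 2 it was 3.01 (all genes -3.34). Without LNCaP replicate 2 it was 1.04 points, and without resistant replicate 1 it was 2.25 points. The change exceeded the pooled SD upwards at 14 members (25.5%, against 19.0% of all protein-coding genes) and downwards at 9 (16.4%, against 36.4%).

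Of the 55 members, 11 (20.0%) were higher in both resistant libraries, against 16.5% of all protein-coding genes, and 9 (16.4%) were lower, against 32.9%. The higher genes were H1-2, H2AC8, H2AC17, H2BC6, H2BC8, H2BC17, H3C11, H4C4, H4C8, H4C11 and H4C12. The lower genes were H1-4, H2AC6, H2AC12, H2BC4, H2BC5, H2BC12, H2BC15, H4C3 and H4C13. This split turns on the scale and on the length of the lists. When each gene was ranked among the protein-coding genes of its library instead of among all summits, 20 members were higher, against 28.5% of all genes, and 1 was lower, against 25.1%. The median change on that scale was 8.42 points over members with a summit and 0.96 over all protein-coding genes with one. On it H4C3, H2AC12, H2BC12 and H2BC15 changed sign, to between 1.07 and 2.32 points. The resistant lists were the shorter ones, and with equal numbers of summits per list 35 members were higher (42.3% of all genes) and 0 lower (13.9% of all genes). The part of list length in these counts cannot be told apart from that of the cell type.

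**Figure D2:**
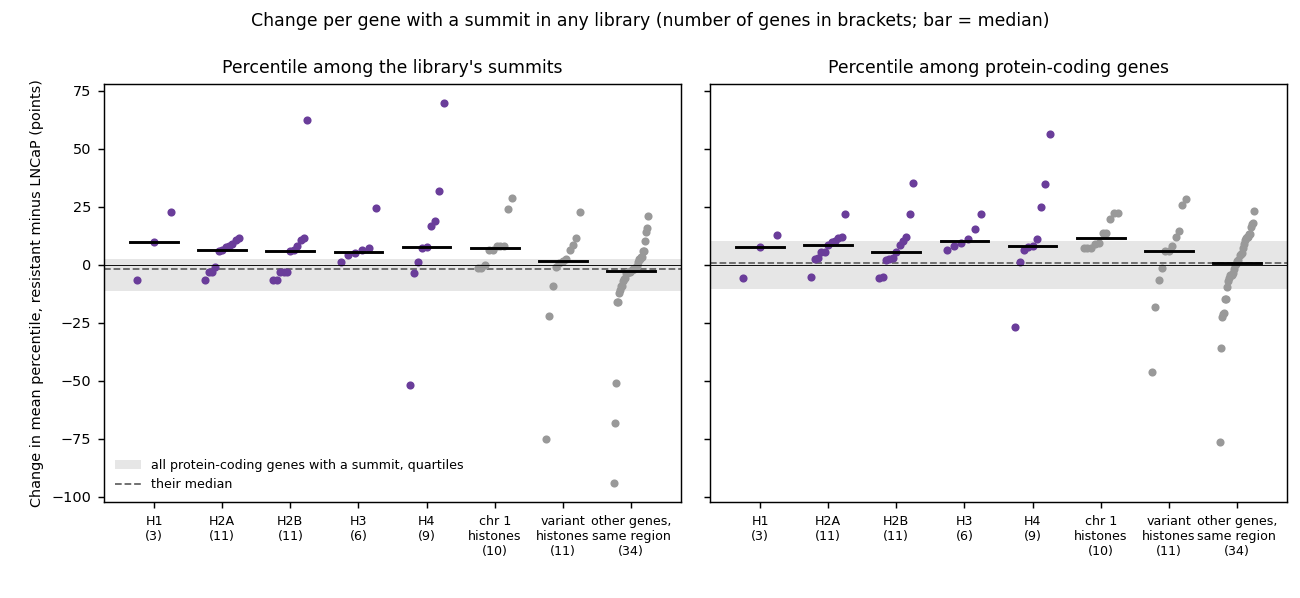
Change in mean percentile, resistant minus LNCaP (vertical axis, points), for every gene with a summit in any library, by histone type and for 3 comparison groups (replication-dependent histone genes on chromosome 1, variant histones, and other protein-coding genes between 25 and 29 Mb). The left panel ranks among all summits and the right panel among protein-coding genes; black bars are medians, the grey band the quartiles and the dashed line the median of all protein-coding genes with a summit. All 5 histone types have medians above the dashed line in both panels.

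A summit was listed at 11 of 12 H2A genes (91.7%) and at 11 of 15 H2B genes (73.3%), against 87.3% of all protein-coding genes, and the median changes were 6.24 and 5.997 points. These medians fell below 0 within repeat 1 (-1.5005 for H2A and -1.61 for H2B) and without LNCaP replicate 2 (-1.94 and -2.41). Neighbours share summits, so the 22 genes are not 22 separate measurements. Of 10 pairs of members with diverging start sites at most 1000 bp apart, 9 were H2A with H2B, and their starts lay between 194 and 248 bp apart. At 6 pairs all 4 libraries had a summit between the starts or within 250 bp of them. Of the 28 strongest summits in that window, counted by pair and library, 27 lay between the starts. The exception was H2AC17 and H2BC17 in LNCaP replicate 2. Stronger summits outside the window were not counted. At H2BC8 and H2AC8 the strongest summit within 1 kb lay 279 to 292 bp after the H2AC8 start in all 4 libraries. In the window, that pair had a summit in LNCaP replicate 2 alone, at a percentile of 8.26. In resistant replicate 2 the strongest summits of H2AC14 and H2AC15 lay 567 and 1192 bp after their starts.

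Some of the strongest shared promoters ranked lower in the resistant libraries on the scale of all summits. At H2BC4 and H2AC6, the percentile was 90.3 and 86.8 in LNCaP replicates 1 and 2 and 81.5 and 82.3 in resistant replicates 1 and 2. The groups did not overlap, and the change of -6.68 points compared with a pooled SD of 1.81. H2AC15 had the highest mean of the H2A genes, at 89.2, 85.5, 85.4 and 87.2 in the same order, with overlapping groups. Its summit in resistant replicate 2 lay 1192 bp after the start, away from the promoter it shares. H2BC15, the partner of H2AC15, had the highest mean of the H2B genes. It was at 89.2, 85.5, 85.4 and 83.3, a change of -2.99 points with a pooled SD of 2.09. Within 250 bp of the start H2AC15 had these same values, and the groups did not overlap. At H2BC11 and H2AC11 the percentiles were 83.8, 86.2, 85.1 and 78.6, a change of -3.14 points that was within the pooled SD of 3.47. All of these pairs stood at percentiles of 78.6 or more in all 4 libraries.

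By their strongest summit within 1 kb, other pairs had a higher mean in the resistant libraries. At H2AC17 and H2BC17 LNCaP replicates 1 and 2 had percentiles of 75.5 and 71.8 against 85.8 and 83.1 in the resistant libraries, a change of 10.8 points with a pooled SD of 2.32. At H2AC14 and H2BC14 the percentiles were 38.6, 22.2, 51.1 and 32.7, a change of 11.5 points with overlapping groups and a pooled SD of 12.3. The summit of resistant replicate 2 lay 567 bp after the H2AC14 start, away from the promoter that the pair shares. Within 250 bp of the starts that library had no summit. The change there was -4.87 points with a pooled SD of 26.8. The promoters of H2AC14 and H2BC14 share stretches of 50 identical bases with those of H2AC13 and H2BC13. A read lying wholly within such a stretch cannot be placed uniquely, while one reaching past it may be. How far this touches the values of these pairs was not tested.

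H2BC6 stood apart from the other H2B genes. It had no summit in LNCaP replicates 1 and 2 and percentiles of 67.7 and 57.2 in resistant replicates 1 and 2, a change of 62.4 points with a pooled SD of 5.27. Both resistant summits lay just before its start, as in the sequence printed above. Members with a summit in both resistant libraries and in no LNCaP library numbered 2 (3.64%, against 1.16% of all protein-coding genes), H2BC6 and H4C12. At H2BC5, which has a gene record of 13229 bp, the percentile was 83.5, 92.1, 81.9 and 80.3, a change of -6.72 points with a pooled SD of 4.39. Its summit lies between it and H1-4 and stands for both.

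Linker histone genes were accessible at 3 of 6. H1-2 was at 62.0 and 63.0 in LNCaP and at 77.6 and 67.4 in the resistant libraries, a change of 10.01 points with a pooled SD of 5.13 and no overlap. In 3 of the libraries its strongest summit lay from 1004 to 1043 bp after the start, past the end of the gene. In LNCaP replicate 2 it lay 17 bp before the start, and no other library had a summit at that site. H1-5 was at 29.2 and 3.54 in LNCaP and at 54.0 and 24.7 in the resistant libraries, with overlapping groups and a pooled SD of 19.5.

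H1-4 shows how a strong neighbour can cover a start site. By its strongest summit it was at 83.5, 92.1, 81.9 and 80.3, lower in the resistant libraries by the summit it shares with H2BC5. Within 250 bp of its own start, LNCaP had no summit and the resistant libraries had percentiles of 71.5 and 57.6, a change of 64.6 points. At H1-5 the start site likewise had no LNCaP summit and percentiles of 54.0 and 24.7 in the resistant libraries. H1-1 to H1-5 all encode somatic linker histones, so that class does not part the H1 genes with a summit from those without. H1-1, H1-3 and H1-6 had no summit within 1 kb in any library.

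All 6 H3 genes with a summit had positive changes, as did 6674 of the 17483 protein-coding genes with one. Their median change was 5.70 points. Of the 10 H3 genes 1 was higher in both resistant libraries (10.0%, against the 16.5% of all protein-coding genes) and, ranked among protein-coding genes, 3 were (30.0%, against 28.5%). H3C11 was at 47.8 and 56.0 in LNCaP and at 79.7 and 73.5 in the resistant libraries, a change of 24.7 points with a pooled SD of 5.16. H3C10 was at 50.7, 62.5, 72.6 and 55.1, a change of 7.22 points within its pooled SD of 10.6. H3C6 had the highest mean, at 86.8, 80.3, 83.0 and 92.7, a change of 4.31 points within a pooled SD of 5.88. No H3 gene had a negative change.

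The largest change of a member was at H4C4. It was at 33.7 in LNCaP replicate 1, had no summit in LNCaP replicate 2, and was at 91.8 and 81.8 in the resistant libraries. The change of 69.9 points compared with a pooled SD of 17.6. H4C8, which was picked out with its values known, stood at 70.7 and 70.3 in LNCaP and at 90.4 and 88.6 in the resistant libraries, a change of 19.0 points with a pooled SD of 0.904. In resistant replicate 1 these genes had the highest percentiles of all members.

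H4C12 had no summit in LNCaP and percentiles of 45.5 and 18.3 in the resistant libraries, a change of 31.9 points with a pooled SD of 13.6. These summits lay 552 and 597 bp after its start, past its end. H4C11, whose promoter shares stretches of 50 identical bases with that of H4C12, had its strongest summits from 459 to 569 bp after its start, at 50.8, 43.5, 55.8 and 53.4. These summits lie past the windows compared, and whether they sit in shared sequence was not tested. H4C3, the H4 gene with the highest mean, was at 86.5, 88.9, 84.6 and 83.8, a change of -3.54 points with a pooled SD of 1.27.

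H4C13 was the 1 member with summits in both LNCaP libraries, at 47.8 and 56.0, and none in the resistant libraries (1.82%, against 3.14% of all protein-coding genes). The value depends on the distance limit. H4C13 and H3C11 share a site, whose resistant summits lay nearer to H3C11 and more than 1 kb from H4C13. With a limit of 3 kb the change at H4C13 was 24.7 points in the other direction, as at H3C11.

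Because neighbours share summits, summits of the 4 libraries within reach of a member were also merged into sites (each widened by 250 bp). The members had 47 sites, 16 of them shared by at least 2 genes. All 4 libraries had a summit at 28 sites (59.6%), against 24.2% of sites near any protein-coding gene. The resistant libraries alone had 4 sites (8.51%, against 3.63%), and both LNCaP libraries alone had 2 (4.26%, against 26.7%). The median change was 7.22 points over the member sites and -12.1 over the sites near any protein-coding gene. These backgrounds are unlike the member sites: they take in whole gene bodies of longer genes (median 24115 bp, against 489 bp for members). Within 250 bp of a listed start, all 4 libraries had a summit at 36.0% of members and at 41.1% of all protein-coding genes. The median change there was 6.61 points over members with a summit and 1.14 over all protein-coding genes with one.

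The 4 sites of the resistant libraries were the starts of H2BC6 (summits within chr6:26183696-26183708), H1-4 (chr6:26156351-26156354) and H1-5 (chr6:27867557-27867572) and the site past the end of H4C12 (chr6:27830963-27831008). The 2 LNCaP sites lay in the body of the H2BC5 record (chr6:26166014-26166284), with percentiles of 2.48 and 29.5, and 742 bp from the start of H2BC12 (chr6:27145859-27146113), with percentiles of 38.6 and 28.7. All of these were singled out by their values. The start of H2AC4, also picked with its values known, was at 38.1 and 28.1 in LNCaP and at 71.0 and 70.2 in the resistant libraries. That site is hidden at the level of the gene in 3 of the libraries by a stronger summit near H3C2. No member site lay within 250 bp of a tRNA gene, of which the region holds 144.

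**Figure D3:**
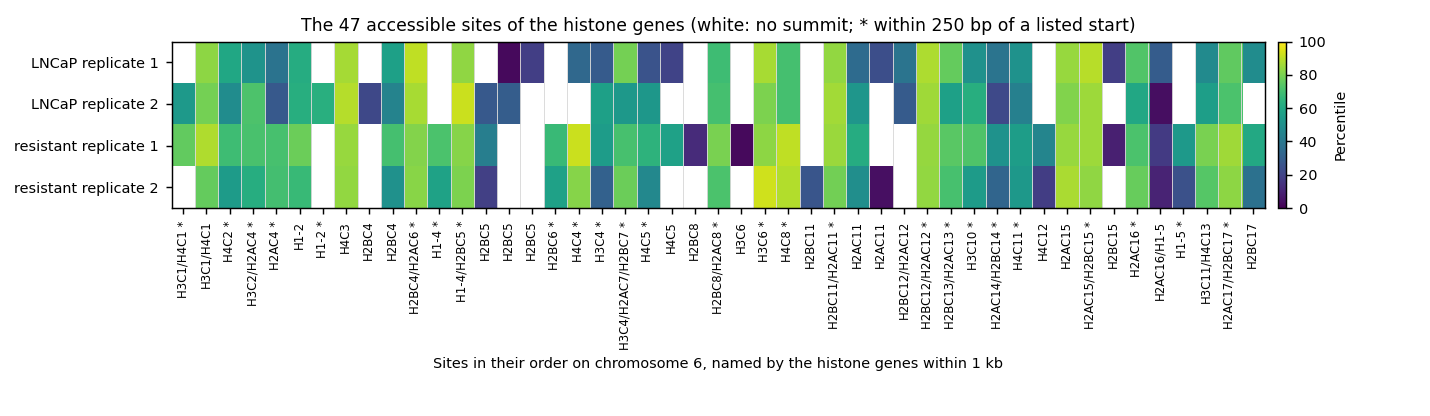
Percentile (colour, 0 to 100) at the 47 accessible sites of the histone genes in the 4 libraries (rows), in their order on chromosome 6 and named by the genes within 1 kb. White marks a library without a summit, and an asterisk marks the sites within 250 bp of a listed start. Both resistant rows and neither LNCaP row are filled at 4 sites (H1-4, H2BC6, H4C12 and H1-5).

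The strongest summit of a histone gene mostly lay near its start. Of members with a listed start and a summit, the strongest summit lay within 250 bp of the start at 64.7% and 66.7% in LNCaP replicates 1 and 2 and at 74.3% and 68.6% in resistant replicates 1 and 2. Over all protein-coding genes the shares were 38.0%, 38.4%, 51.0% and 51.6%. The members are short (median 489 bp, against 24115 bp for all protein-coding genes), which leaves less room for a summit far from the start. The median position relative to the start, negative before it, was -87.5, -83, -85 and -79 bp in LNCaP replicates 1 and 2 and resistant replicates 1 and 2. H2A, H2B and H3 summits mostly lay before the start, while those of H1 and H4 mostly lay after it.

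**Figure D4:**
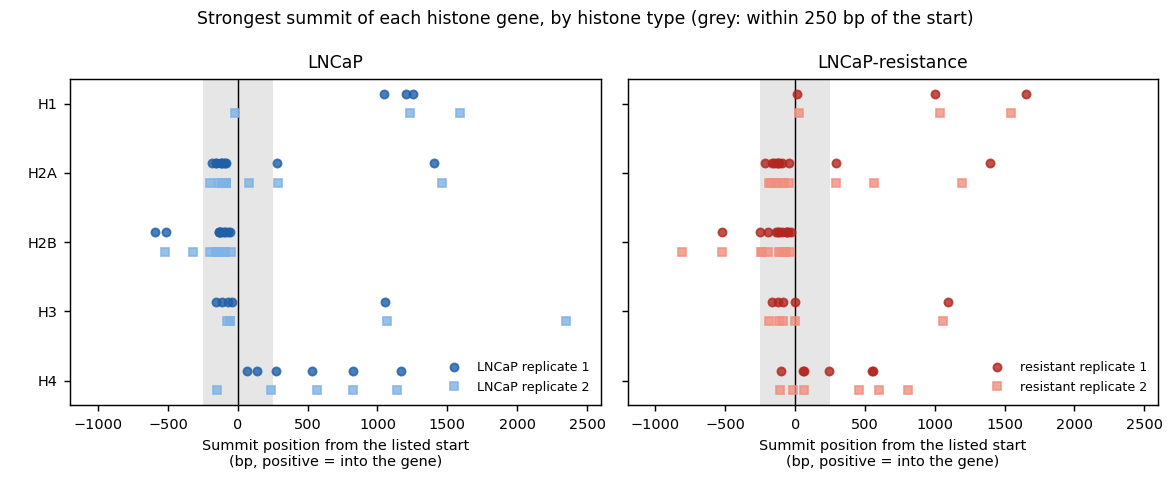
Position of the strongest summit of each histone gene relative to its listed start (horizontal axis, bp, positive into the gene), by histone type, in the LNCaP libraries (left) and the resistant libraries (right). Each point is 1 gene in 1 library, and the grey band marks 250 bp on either side of the start. Between 64.7% and 74.3% of the members' points of a library lie in the grey band.

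Within 250 bp of the start alone, 24 and 27 of the 50 members with a listed start had a summit in LNCaP replicates 1 and 2, and 29 and 26 in resistant replicates 1 and 2. These are 48.0%, 54.0%, 58.0% and 52.0%, against 51.6%, 52.3%, 58.3% and 53.0% of all protein-coding genes with a listed start. In a window of fixed size the histone genes were thus not more often accessible at the start than other genes. The resistant libraries alone had one at H2BC6, H1-4 and H1-5 (3 of 50, against 4.04% of protein-coding genes with a listed start), and LNCaP alone at 0 members (against 1.82%). By percentile, 8 start sites were higher in the resistant libraries (16.0%, against 18.1%) and 5 were lower (10.0%, against 11.5%). These shares were close to the background.

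The promoters differed in sequence by histone type. RefSeq listed a promoter for 50 members, and H4C1, H4C3, H2AC12, H3C11 and H3C12 are named only. TATAAA was found in 66.0% of them and in 9.63% of the 15843 protein-coding promoters listed. CCAAT was found in all H1, H2A, H2B and H3 promoters and in 3 of 10 of H4, and in 36.4% of all promoters. The octamer ATTTGCAT was found in 9 of 11 H2A, 12 of 15 H2B, 1 of 8 H3 and no H1 or H4 promoters, and in 1.70% of all. AAACACA was found in all 6 H1 promoters, in no other member and in 4.24% of all. Paired H2A and H2B genes have overlapping windows, so a match can be counted in both. None of the 4 motifs contains another.

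Members without a summit held these motifs too. TATAAA was in 26 of 36 promoters of members with a summit and in 7 of 14 without, CCAAT in 30 and 13, ATTTGCAT in 17 and 5, and AAACACA in 3 and 3. The median GC content was 42.3% with a summit and 43.7% without, against 62.7% over all protein-coding promoters. A match describes the letters of a window and is no evidence of binding.

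Replication-dependent histone genes on chromosome 1 are the nearest comparison. Of 13, 10 had a summit, with a median change of 7.33 points. Values were identical within the pairs H2BC18 and H3C13, H2AC25 and H2BC26, and H2AC20 and H2AC21. The 10 genes are therefore not 10 separate measurements, and the counts below take in both genes of a pair. Of the 13, 2 were higher (15.4%, against 16.5% of all protein-coding genes) and 0 lower (against 32.9%). Ranked among protein-coding genes, 6 were higher (46.2%, against 28.5%) and 0 lower (against 25.1%). H2AC18 was at 29.2, 28.5, 53.0 and 52.9, a change of 24.1 points. H2AC19 was at 59.3 and 0 in LNCaP against 53.0 and 63.7 in the resistant libraries, a change of 28.7 points with overlapping groups. H2AC18 and H2AC19 are near-identical copies, so their values are uncertain.

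Variant histones, which are mostly made outside S phase as well, changed in both directions. All 11 such genes found had a summit in at least 3 libraries, with a median change of 1.87 points. On either scale 4 were higher (36.4%) and 2 lower (18.2%). Of all protein-coding genes, 16.5% were higher and 32.9% lower on the scale of all summits. Ranked among protein-coding genes, these shares were 28.5% and 25.1%. H2AJ, an H2A variant, was at 89.97 and 81.8 in LNCaP, 21.4 in resistant replicate 1 and had no summit in resistant replicate 2. H3-3A, which encodes the variant H3.3, was at 68.9 and 53.6 in LNCaP against 83.8 and 83.9 in the resistant libraries.

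Other protein-coding genes between 25 and 29 Mb changed in both directions. Among 40 such genes the median change was -2.54 points over those with a summit. Of these genes, 12.5% were higher and 30.0% lower, against the 16.5% and 32.9% of all protein-coding genes. Ranked among protein-coding genes, 11 were higher (27.5%, against 28.5%) and 9 lower (22.5%, against 25.1%), so their direction depends on the scale. The largest changes were at ZSCAN12, a zinc finger gene, at 94.0 and 94.4 in LNCaP without a resistant summit, and at SLC17A3, a solute carrier gene, at 60.9 and 75.6 in LNCaP without a resistant summit. The region as a whole held 0.235% and 0.240% of the summits of the LNCaP lists and 0.346% and 0.392% of those of the resistant lists. On the scale of protein-coding genes the medians were 11.7 points for the chromosome 1 histones, 6.13 for the variants and 0.95 for these neighbours.

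Genes of histone transcription and mRNA processing stayed accessible. All 18 on a list of such factors had a summit in all 4 libraries, with a median change of -0.71 points. Of these, 2 were higher (11.1%, against 16.5% of all protein-coding genes) and 3 lower (16.7%, against 32.9%). Ranked among protein-coding genes the sign turned, with a median of 4.21 points. On that scale 5 were higher (27.8%, against 28.5%) and 1 lower (5.56%, against 25.1%). CASP8AP2, a component of the histone locus body, was at 92.4 and 92.4 in LNCaP and at 98.4 and 98.1 in the resistant libraries, a change of 5.85 points with a pooled SD of 0.150. ERI1, a nuclease that trims histone mRNA ends, was at 97.8, 97.5, 99.6 and 98.3. The lower genes on the scale of all summits were CPSF3, the endonuclease that cuts histone pre-mRNA, with a change of -7.76 points, CSTF2 with -4.74 and LSM10, a subunit of the U7 particle, with -2.88. On the other scale CPSF3 alone was lower, and SLBP, LSM11 and SYMPK joined ERI1 and CASP8AP2 among the higher genes. NPAT, the activator of these genes, was at 98.4, 97.4, 97.3 and 99.1, and SLBP, which binds the stem-loop, at 86.7, 85.5, 86.9 and 86.4, both with overlapping groups on the scale of all summits.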

How the data were processed

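ATAC-seq libraries of LNCaP and LNCaP-resistance cells (2 each) were analysed from summit lists. The submitters' processing notes name Bowtie2 2.2.5, SAMtools 1.6, MACS2 2.2.6, deepTools 3.5.2, HOMER 4.11, edgeR 3.22.5 and the build hg38. The authors called peaks per library. The deposited score has the −log10 form that MACS2 gives to summits; whether it rests on p or q is not given in the sources used here. It depends on depth, so percentiles within a library were used. Whether reads were shifted for the transposase is not given in the sources used here.

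Gene positions came from RefSeq GRCh38.p14 and starts and strands from its promoter table. Python 3.11.15, numpy 2.4.6 and pandas 2.3.3 were used. Members, gene lists and motifs were chosen with earlier results of these data known. H4-16 was looked up among variant histones and not matched, and proteins were not analysed here. Genes named were all H1 genes, those of each other type with the 2 largest rises, the 2 largest falls and the highest mean, those without a summit, those with summits in both libraries of a single cell type, listed factors whose groups did not overlap, and the 2 largest changes of comparison groups; any others were chosen after their values were seen. Replicate lists shared 2.15% (LNCaP) and 2.46% (resistant) identical positions and were counted as separate. The labels' batch number was taken as a block, although deviations of same-numbered libraries correlated at 0.01 over 14892 genes. In simulated lists of 800 genes, at least 199 of 200 planted genes of each kind were recovered.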

Additional observations from a re-analysis of the deposited data

How the results depend on the processing

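The median change over members stayed positive in all 15 alternatives, from 1.04 to 42.4 points; the count of genes without a summit stayed within 1.5 times. Leaving out 1 library gave 13 to 22 members higher (22 without LNCaP replicate 1, 19 without resistant replicate 2; all genes 20.0% to 32.2%), 10 to 15 lower (15 without LNCaP replicate 2; all genes 35.9% to 49.9%) and medians of 1.04 to 7.76 points. The medians by type then ran from 4.91 to 15.1 (H1), -1.94 to 5.53 (H2A, 2.25 without resistant replicate 1), -2.41 to 5.53 (H2B), 4.91 to 8.39 (H3) and 3.76 to 14.6 (H4); the negative values were without LNCaP replicate 2.

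With equal numbers of summits per list, 35 members were higher (42.3% of all genes) and 0 lower (13.9%), with a median of 42.4 points (all genes 7.59), 24 members had a summit in LNCaP replicate 2 and 21 in all libraries, and the medians of H1, H2A, H2B, H3 and H4 were 26.7, 43.1, 28.4, 42.3 and 44.2. With scores of at least 10, 3 were lower (all genes 24.2%), the median was 15.2 and those of H2A, H2B, H3 and H4 were 15.5, 12.8, 16.2 and 17.0. Ranked among protein-coding genes, 20 were higher and 1 lower, and the H3 median was 10.2. Within 250 bp of the start, an alternative added after seeing the data, 24 members had a summit in LNCaP replicate 1 and 18 in all libraries, 5 were lower, and the medians were 39.4, 1.504, -2.99, 7.22 and 29.3. Within 1 kb of the start the H1 and H4 medians were 39.4 and 17.8, within 500 bp of the gene those of H1 and H2B were 22.8 and -2.88, and with the nearest summit that of H4 was 17.1. With sites widened by 100 or 500 bp, LNCaP alone had 1 site. With the replicate block, 15 members were higher and 9 lower in both repeats (all genes 20.8% and 38.8%). Within repeat 2 the median was 3.01. The H1, H2A, H2B and H3 medians within repeat 1 were 15.6, -1.5005, -1.61 and 12.6, and those of H1, H2A and H2B within repeat 2 were 4.38, 1.63 and 1.46.

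Signs turned at 13 called members. With equal numbers these were H4C3 (10.3), H2BC4 and H2AC6 (4.75), H1-4 and H2BC5 (6.57), H2BC12 and H2AC12 (11.8) and H2BC15 (11.3), and ranked among genes H4C3 (1.07), H2BC12 and H2AC12 (2.32) and H2BC15 (2.07). Within 500 bp they were H1-4 (22.8), H2BC5 (25.8) and H2BC8 (-4.13), and within 3 kb H4C13 (24.7). Within 1 kb of the start they were H1-2 (-31.5) and H1-4 (64.6). With the nearest summit they were H2BC4 (9.87), H2BC5 (6.87) and H2BC12 (50.3). Within 250 bp of the start they were H1-2 (-31.5), H1-4 (64.6), H2BC5 (35.02), H2BC8 and H2AC8 (-4.13) and H4C11 (-4.92). The causes were not tested. Read depth is unknown, and 2 libraries a group limit every value.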
